A study of Homo sapiens with 6 samples.

Results

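Aquaporins are channel proteins that let water, and in some members glycerol or other small uncharged solutes, cross a membrane. The set described here holds 8 of them, AQP1, AQP3, AQP4, AQP5, AQP7, AQP8, AQP9 and AQP11, with every probe set that the platform annotation pairs with a member. These were 15 of the 54613 probe sets tested. Of the 15, 14 list 1 gene each and cover 7 of the 8 genes. The remaining probe set lists AQP7 together with AQP7B, a near copy, so no value here belongs to AQP7 alone. The members were selected on the same log2 differences between the treatments that are given below, so these differences are a description, without p-values.

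Total RNA was measured on 6 single-colour Affymetrix arrays, 3 from LNCaP cells given small interfering RNA (siRNA) to PCARNEQ and 3 from LNCaP cells given siRNA to EGFP. LNCaP is an established human prostate cancer line, PCARNEQ is a non-coding RNA, and EGFP is a fluorescent protein that human cells lack, so siEGFP served as the control siRNA. The groups are written siPCARNEQ and siEGFP, and arrays are numbered 1 to 3 as in the labels, which name 1 siRNA label for each group and give no dose, time or hormone condition. The labels speak of a triplicate without naming separate cultures, so a p-value here covers the spread from array to array, which may be technical, and nothing beyond it.

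The family falls into classes by what its pores conduct. AQP1, AQP4 and AQP5 are mainly water channels, AQP8 also conducts ammonia and hydrogen peroxide, AQP3, AQP7 and AQP9 are aquaglyceroporins that carry glycerol as well as water, and AQP11 is a divergent member found largely inside the cell. AQP3 lies in the basolateral membrane of many epithelia, AQP1 is abundant in red cells and capillary endothelium, AQP4 in astrocyte end-feet, AQP7 in adipocytes and AQP9 in hepatocytes. In the RefSeq annotation (GRCh38.p14), AQP3 and AQP7 are neighbouring protein-coding genes on chromosome 9, and AQP5 lies between AQP2 and AQP6 on chromosome 12.

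The AQP3 promoter is shown because AQP3 is the member with the large difference between treatments. The AQP1 promoter is shown beside it because AQP1 is the only other member with both of the motifs marked in its window. Both are RefSeq windows (GRCh38.p14) of 250 bases before to 50 bases after the annotated start, 5′ to 3′ on the gene's strand, at chr9:33447544-33447843 (minus strand) for AQP3 and chr7:30911603-30911902 (plus strand) for AQP1. Capitals mark TATAAA and GGGCGG (or CCGCCC, its reverse complement), with overlapping GGGCGG copies running together.
AQP3: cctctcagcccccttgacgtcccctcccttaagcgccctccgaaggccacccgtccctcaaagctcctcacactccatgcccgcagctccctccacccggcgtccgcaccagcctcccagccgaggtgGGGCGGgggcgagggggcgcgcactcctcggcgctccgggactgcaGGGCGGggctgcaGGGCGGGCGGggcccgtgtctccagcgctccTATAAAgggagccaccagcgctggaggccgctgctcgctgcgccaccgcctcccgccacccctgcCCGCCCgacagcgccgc
AQP1: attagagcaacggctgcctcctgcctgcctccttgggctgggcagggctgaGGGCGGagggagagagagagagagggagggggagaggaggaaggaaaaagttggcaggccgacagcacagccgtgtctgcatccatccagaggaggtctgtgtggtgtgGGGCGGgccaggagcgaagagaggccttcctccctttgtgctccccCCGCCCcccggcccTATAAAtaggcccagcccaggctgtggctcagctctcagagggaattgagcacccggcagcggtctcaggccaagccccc

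The AQP3 window holds TATAAA 32 bases before the start and 5 copies of GGGCGG or its reverse complement, and the AQP1 window holds TATAAA 30 bases before the start and 3 such copies. Promoter windows were found for 7 of the 8 members, 10 windows in all since AQP4 has 3 and AQP9 has 2, and AQP11 had no entry. TATAAA or its reverse complement TTTATA was in 3 of the 10 windows, those of AQP1, AQP3 and 1 of AQP4, against 11.5% of the 35116 windows in the table. GGGCGG in either orientation was in the windows of AQP1, AQP3, AQP5 and AQP7, against 45.0% of all windows. None of the 10 windows held AGAACA or TGTTCT, the half-site bound by the androgen receptor, which 14.8% of all windows hold. GC content was 75.3% in the AQP3 window and 65.3% in the AQP1 window, and the median over all windows was 58.7%.

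Arrays had the same median intensity of 130.8 and the same range of 7.35 to 42200, because their values had been brought to 1 distribution before deposit. Array 1 stood apart from arrays 2 and 3 in both groups. The SD of the log2 difference over all probe sets was 0.371 to 0.373 between siPCARNEQ array 1 and the other arrays of its group, against 0.136 between arrays 2 and 3, and the same comparison in siEGFP gave 0.232 to 0.239 against 0.129. RNA integrity, read as the 3′ control probe set of ACTB minus its 5′ one (log2), was 1.84 on siPCARNEQ array 1 and 0.63 to 0.78 on the other 5 arrays. No probe set was paired with PCARNEQ, so knockdown itself was not analysed here. As a rough guide to background, 103 probe sets of 80 olfactory receptor genes were used, whose mean log2 intensity had a 95th percentile of 7.28. Probe sets differ in brightness at the same amount of RNA, so a value above this guide does not by itself show that a gene is expressed. All 7 measured luminal prostate markers (KLK3, KLK2, TMPRSS2, FOLH1, HOXB13, KRT8 and KRT18) exceeded it on all 6 arrays. Of 21 measured markers of 8 other cell types, 5 exceeded it on all 6 arrays and 11 on none. The log2 of the summed luminal marker intensity was 15.85 to 15.90 in siPCARNEQ and 15.20 to 15.33 in siEGFP. FOLH1 differed by -0.03, and the other luminal markers had positive differences. The log2 sum of the fibroblast markers COL1A1, COL1A2 and DCN was 10.81 to 11.21 in siPCARNEQ and 10.02 to 10.07 in siEGFP, mainly from COL1A1. COL1A1 differed by 1.11, DCN by 0.11 and COL1A2 by -0.14, and COL1A2 exceeded the guide on no array. The basal sum (KRT5 and KRT14) was 7.59 to 7.77 in siPCARNEQ and 7.41 to 7.56 in siEGFP, with neither marker above the guide on any array. KRT14 rose by 1.02 (limma adjusted p = 0.000307), while KRT5 differed by -0.16. The adipocyte sum (ADIPOQ, FABP4 and PLIN1) was 7.86 to 7.92 in siPCARNEQ and 7.63 to 7.77 in siEGFP, with ADIPOQ and FABP4 above the guide on no array. Only PLIN1 was higher in siPCARNEQ, by 0.26, and it did not pass (limma adjusted p = 0.0524). ADIPOQ and FABP4 differed by -0.13 and -0.20. The sums of the other 5 cell types overlapped between the groups.

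**Figure D1:**
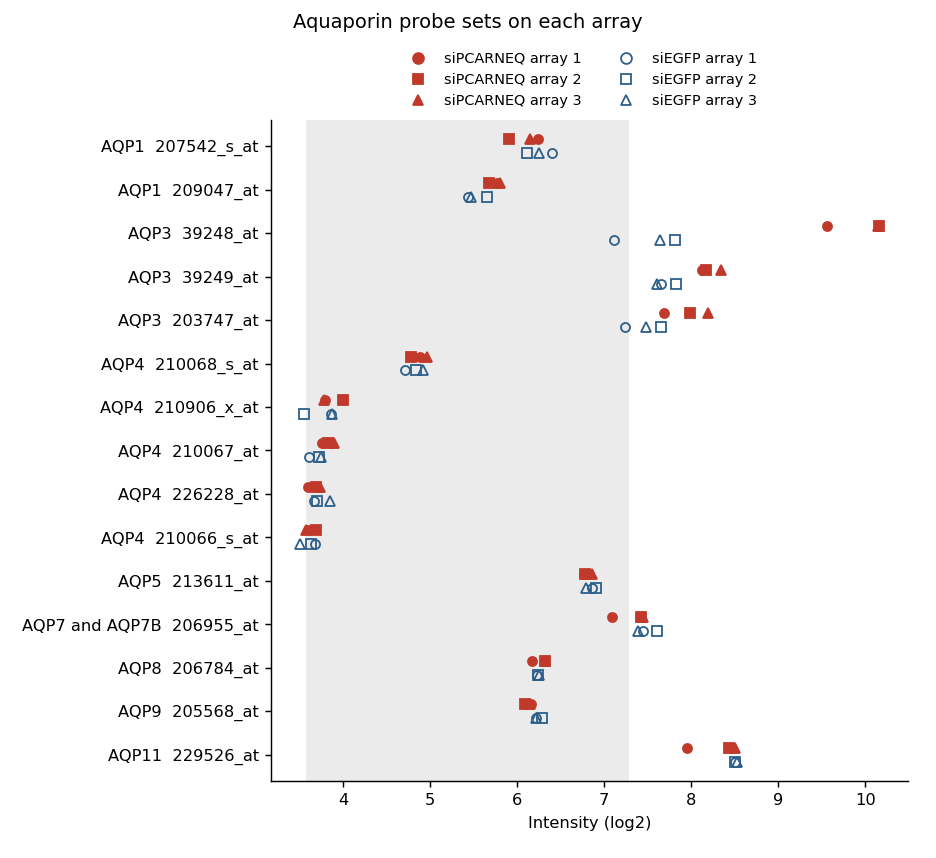
Log2 intensity (x axis) of each of the 15 aquaporin probe sets (rows) on each array, with filled red symbols for siPCARNEQ, open blue symbols for siEGFP and the symbol shape giving the array number. The grey band runs from the 5th to the 95th percentile of the olfactory receptor probe sets (3.59 to 7.28), and AQP3 probe set 39248_at is the row where the groups lie far apart.

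AQP3 was higher in siPCARNEQ cells in all 3 of its probe sets, by very different amounts. In probe set 39248_at the intensity was 755.2, 1142 and 1129 on siPCARNEQ arrays 1 to 3, against 138.7, 225.8 and 199.2 on siEGFP arrays 1 to 3. Every siPCARNEQ array lay above every siEGFP array, and array 1 was the lowest of its group on both sides. The means were 9.95 ± 0.34 in siPCARNEQ and 7.52 ± 0.36 in siEGFP (SD, n = 3 each, log2 intensity), a log2 difference of 2.43 (SE 0.23), or 5.38-fold. On siEGFP array 1 the probe set lay at 7.12, below the background guide of 7.28, and the siEGFP mean lay close to it, so the size of this difference is uncertain. The difference between arrays of the same number was 2.44, 2.34 and 2.50, and it was 2.42 without array 1 of both groups.

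The other AQP3 probe sets gave smaller differences. Probe set 39249_at had intensities of 278.5, 289.1 and 325.1 on the siPCARNEQ arrays, against 201.9, 226.9 and 195.7 on the siEGFP arrays. Probe set 203747_at had 206.9, 254.0 and 293.0 on the siPCARNEQ arrays, against 151.5, 201.0 and 178.5 on the siEGFP arrays. In neither probe set did the groups overlap, although in 203747_at siPCARNEQ array 1 lay just above the highest siEGFP array. The log2 difference was 0.52 (SE 0.10) in 39249_at and 0.50 (SE 0.16) in 203747_at, or 1.43-fold and 1.41-fold. Probe set 203747_at also lay below the guide on siEGFP array 1, at 7.24, so its size is likewise uncertain. Both had their largest difference between arrays numbered 3, at 0.73 and 0.71 on the log2 scale, and their smallest between arrays numbered 2, at 0.35 and 0.34. The luminal, fibroblast, basal and adipocyte marker sums given above were also higher in siPCARNEQ, although each held at least 1 marker with a negative difference. The part of these sums in the AQP3 difference was not tested. RNA came from whole cultures, so more cells with AQP3 RNA and more AQP3 RNA in each cell cannot be told apart.

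**Figure D2:**
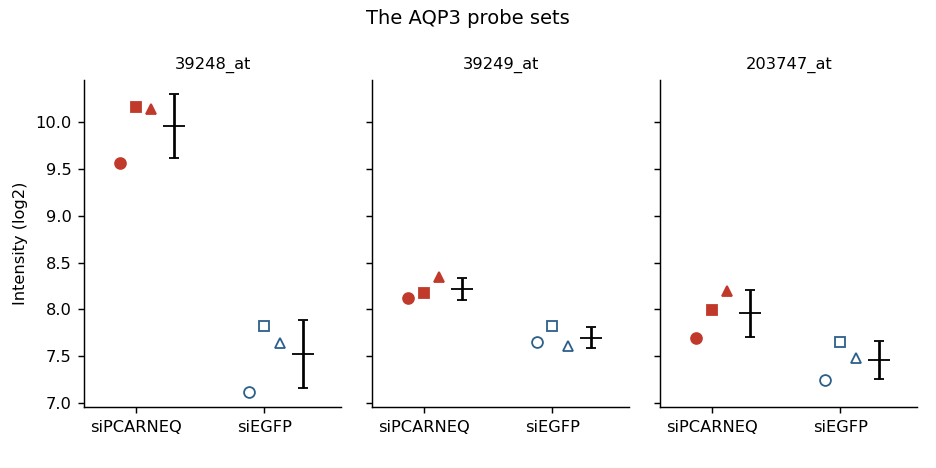
Log2 intensity (y axis) of the AQP3 probe sets, 1 panel for each, with siPCARNEQ left of siEGFP, the symbol shape giving the array number (circle 1, square 2, triangle 3) and black bars giving mean ± SD of 3 arrays. The group means are 2.43 apart in 39248_at and 0.50 to 0.52 apart in the other panels.

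The log2 differences of the AQP3 probe sets spanned 1.93. Among 10523 genes with more than 1 single-gene probe set, the median span was 0.27 and the 95th percentile 1.11, and 67 genes (0.637%) had a span at least as wide as that of AQP3. With the comparison limited to probe sets whose mean lay above the olfactory receptor guide, which keeps all AQP3 probe sets, 20 of 5664 genes (0.353%) had one. AQP3 was selected on these same differences, and a gene with a large difference can have a wide span more easily. Genes were not matched on size of change or number of probe sets. These shares therefore do not show that the AQP3 probe sets disagree unusually. The span was 0.39 for AQP1, whose probe sets differed in sign, and 0.20 for the 5 probe sets of AQP4. The annotation pairs 39248_at with accession N74607, 39249_at with AB001325 and 203747_at with NM_004925. Where in AQP3 these probe sets match was not analysed here.

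**Figure D3:**
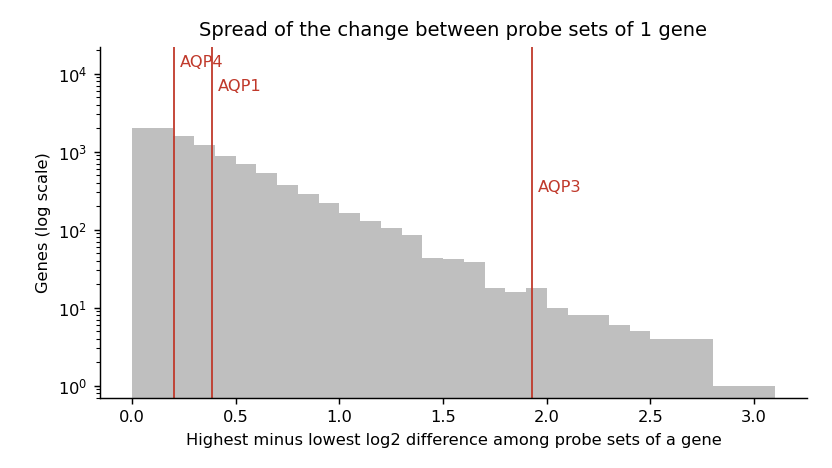
Histogram over 10523 genes of the span between the highest and the lowest log2 difference (siPCARNEQ minus siEGFP) among probe sets of the same gene (x axis), with the number of genes on a log y axis. Red lines mark AQP4 at 0.20, AQP1 at 0.39 and AQP3 at 1.93, the last of these in the sparse right tail.

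The probe sets of the other aquaglyceroporins of the set, AQP7 and AQP9, had small differences between group means, of the opposite sign. The probe set listing AQP7 and AQP7B (206955_at) had log2 intensities of 7.09, 7.42 and 7.45 in siPCARNEQ, against 7.45, 7.61 and 7.39 in siEGFP. The groups overlapped, with siPCARNEQ array 1 the lowest, and the log2 difference was -0.17 (SE 0.12), or -0.07 without array 1 of both groups. Between arrays numbered 1, 2 and 3 it was -0.36, -0.19 and 0.06, so the sign was not the same throughout. AQP9 (205568_at) had 6.16, 6.09 and 6.15 in siPCARNEQ, against 6.21, 6.28 and 6.22 in siEGFP. These groups did not overlap but lay within the range of the olfactory receptor probe sets, and the log2 difference was -0.10 (SE 0.07).

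The water channels lay below the background guide on all arrays. AQP1 had a log2 difference of -0.16 (SE 0.12) in probe set 207542_s_at, with 6.24, 5.90 and 6.15 in siPCARNEQ and 6.41, 6.12 and 6.25 in siEGFP. In its other probe set, 209047_at, the difference was 0.23 (SE 0.09), with 5.76, 5.68 and 5.80 in siPCARNEQ and 5.43, 5.66 and 5.47 in siEGFP. The groups overlapped in the first of these and not in the second, where siPCARNEQ array 2 and siEGFP array 2 were 0.02 apart. AQP4 ranged from 3.57 to 4.96 in siPCARNEQ and from 3.51 to 4.91 in siEGFP over its 5 probe sets, with log2 differences of -0.07 to 0.13. The AQP4 groups overlapped in 4 probe sets and not in 210067_at, which had 3.76, 3.83 and 3.90 in siPCARNEQ and 3.61, 3.72 and 3.75 in siEGFP. AQP5 (213611_at) had 6.76, 6.78 and 6.86 in siPCARNEQ and 6.86, 6.90 and 6.80 in siEGFP, a log2 difference of -0.05 (SE 0.07). AQP8 (206784_at) had 6.17, 6.32 and 6.32 in siPCARNEQ and 6.23, 6.23 and 6.25 in siEGFP, a difference of 0.03 (SE 0.07). Groups overlapped for both AQP5 and AQP8.

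AQP11 lay above the guide on all 6 arrays. Its probe set 229526_at had log2 intensities of 7.95, 8.44 and 8.51 in siPCARNEQ, against 8.50, 8.50 and 8.53 in siEGFP. Only siPCARNEQ array 1 lay well away from the rest, and the groups overlapped. The log2 difference was -0.21 (SE 0.15) with all arrays and -0.04 without siPCARNEQ array 1. That array was also the one with the high 3′ to 5′ difference of ACTB, 1.84 against 0.63 to 0.78, and the part of RNA integrity in the AQP11 value was not tested.

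**Figure D4:**
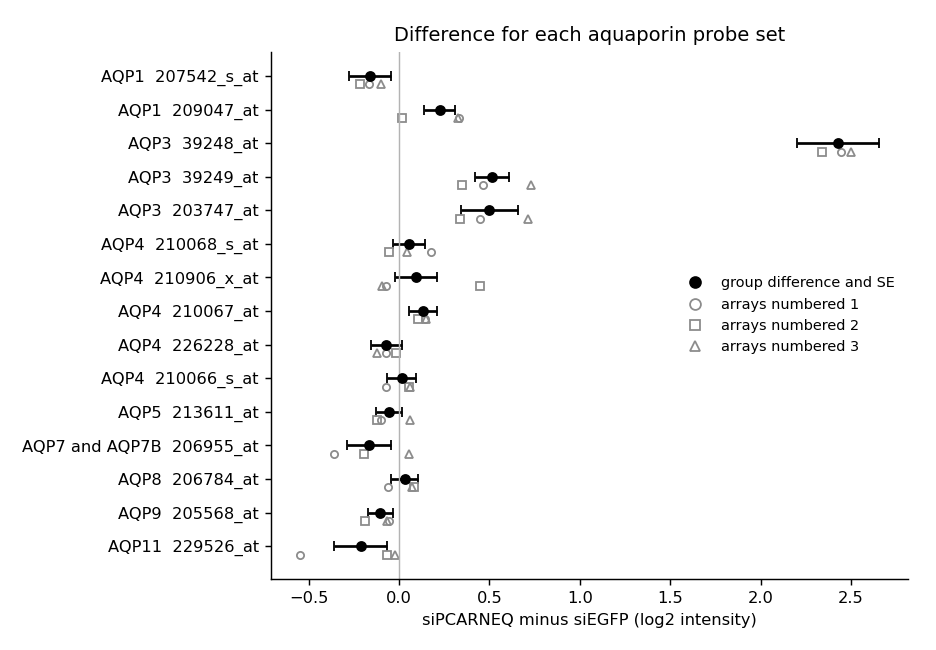
Difference siPCARNEQ minus siEGFP in log2 intensity (x axis) for each aquaporin probe set (rows), with black points and bars for the group difference and its SE and open grey symbols for arrays of the same number. The 12 probe sets that do not belong to AQP3 lie between -0.21 and 0.23, and the AQP3 probe sets lie at 0.50, 0.52 and 2.43.

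Over the 15 probe sets the median log2 difference was 0.03, against -0.01 over all 54613. In the limma fit, with adjustment by Benjamini-Hochberg over all probe sets and a threshold of 0.05, 2 of the 15 were called higher, 39248_at and 39249_at of AQP3, and 0 lower, where 9.92% of all probe sets were called higher and 8.61% lower (18.5% in all). The groups did not overlap in 6 of the 15, against 37.7% of all probe sets. Because the members were chosen with this difference known, nothing is read from these counts.

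The pattern of AQP3 probe set 39248_at over the arrays had close matches elsewhere. The other AQP3 probe sets, with log2 differences of 0.52 and 0.50, were not compared in this way. Likeness was measured as the root mean square difference of log2 values centred on each probe set's mean over the 6 arrays, between 39248_at and the brightest probe set of each of the other 19774 genes. The 5 closest were IL6R, the interleukin-6 receptor subunit (0.10), SERPIND1, the thrombin inhibitor heparin cofactor II (0.14), CTNNA2, a catenin of cell junctions (0.17), SCGB1D2, a secretoglobin (0.17), and CYP3A5, a steroid- and drug-oxidizing enzyme (0.20). The median over all genes was 1.26. That median is set largely by the size of the difference in 39248_at itself, so it does not show that these matches are unusual. The log2 differences of the 5 genes were 2.31, 2.56, 2.26, 2.30 and 2.21 in that order. SERPIND1 and SCGB1D2 averaged 8.97 and 7.91 in siPCARNEQ and 6.41 and 5.61 in siEGFP, and all their siEGFP values lay below the background guide. CTNNA2 and CYP3A5 averaged 9.32 and 9.54 in siPCARNEQ and 7.06 and 7.33 in siEGFP, with siEGFP array 1 below the guide in both. The sizes of the differences of these 4 genes are therefore uncertain.

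The aquaporins outside the set gave no calls. MIP (the lens aquaporin), AQP2 (the vasopressin-regulated channel of the kidney), AQP6 and AQP10 had log2 differences of -0.16 (SE 0.09), -0.01 (SE 0.08), -0.02 (SE 0.10) and -0.18 (SE 0.09) in their brightest probe sets. None of these 4 passed with limma (adjusted p = 0.239, 0.92, 0.896 and 0.189), and 0 had an unadjusted p below 0.05. AQP12A and AQP12B share their probe sets and were not analysed here as genes.

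Genes around aquaporin function, in lists chosen with earlier results of these data known, were compared by 1 probe set each among 19775 genes, of which 15.2% rose and 12.3% fell (27.5% in all) with limma at an adjusted p below 0.05. Glycerol that enters through an aquaglyceroporin is phosphorylated and then either oxidized or built into lipids. Of 31 measured genes of glycerol and neutral lipid handling, 4 rose, 5 fell and 22 did not pass, with a median log2 difference of -0.03 against -0.01 over all genes. GPD2, the mitochondrial glycerol-3-phosphate dehydrogenase, fell to 9.20 ± 0.20 in siPCARNEQ, against 10.76 ± 0.05 in siEGFP (SD, n = 3, log2 intensity), a difference of -1.56 (SE 0.11, adjusted p = 0.000115). Its 3 probe sets ran from -1.56 to -0.78 and their mean gave -1.23. GPAM, which starts glycerolipid synthesis by acylating glycerol-3-phosphate, fell by 0.996 (SE 0.10, adjusted p = 0.00053), and the glycerol kinase family member GK5 fell by 0.54 (SE 0.07). LPIN2, a phosphatidate phosphatase, rose by 1.13 (SE 0.08, adjusted p = 0.000161). AGPAT1, an acyltransferase of the same pathway, rose by 0.58 (SE 0.13), and MGLL, the lipase that frees glycerol from monoacylglycerol, by 0.48 (SE 0.10). PLIN3 also rose and PNPLA3 and PGP also fell, named after their values were seen. The probe sets of PGP differed in sign, from -0.46 to 0.06. AGPAT1 did not pass without siEGFP array 2 or array 3, and neither AGPAT1 nor MGLL passed with arrays 2 and 3 of each group averaged. In this list 2 rose without siEGFP array 2, 2 without siEGFP array 3 and 2 without probe sets that have the suffix s or x, 8 fell without array 1 of both groups, and 1 rose and 3 fell with arrays 2 and 3 averaged.

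Cells answer a change in volume by moving ions, amino acids and other osmolytes. Of 25 measured genes of the osmotic and cell volume response, 6 rose, 3 fell and 16 did not pass, with a median log2 difference of -0.01. With the replicate number as a block, 7 rose and 5 fell. LRRC8B, a subunit of the volume-regulated anion channel, fell to 7.54 ± 0.17 in siPCARNEQ, against 9.50 ± 0.25 in siEGFP, a difference of -1.97 (SE 0.14, adjusted p = 0.000152). Its 3 probe sets ran from -1.97 to -0.28 and their mean gave -0.94. LRRC8E, another subunit, rose by 0.47 (SE 0.10, adjusted p = 0.0121). The amino acid transporter SLC38A2 fell by 1.30 (SE 0.08, adjusted p = 7.2e-05) and HSPA4L, a chaperone of the HSP110 family, by 1.02 (SE 0.22), with -1.54 as the mean of its probe sets. SLC6A6, the taurine transporter, rose by 0.75 (adjusted p = 0.000525, SE 0.08) in the brightest of its probe sets, but its 5 probe sets ran from -0.25 to 0.75 and their mean gave 0.03. The kinase WNK3, a regulator of cation-chloride cotransport, rose by 0.59 (SE 0.12) in its brightest probe set, with its 3 probe sets between -0.10 and 0.74. STK39, SLC12A2 and CLCN3 also rose, named after their values were seen. The probe sets of SLC12A2 ran from -0.12 to 0.26 and those of CLCN3 from -0.05 to 0.28, so both differed in sign. The number that rose was 1 without siEGFP array 2, 1 with arrays 2 and 3 averaged, and 3 without siEGFP array 3 or siPCARNEQ array 3 or with all probe sets of a gene averaged, while 6 fell without array 1 of both groups. LRRC8E and WNK3 did not pass without siEGFP array 2, and with arrays 2 and 3 averaged neither they nor HSPA4L did.

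Several aquaporins, AQP3 and AQP8 among them, also conduct hydrogen peroxide. Of 23 measured genes of hydrogen peroxide handling, 3 rose, 2 fell and 18 did not pass, with a median log2 difference of 0.05. CAT, the catalase that breaks hydrogen peroxide down, rose to 13.87 ± 0.06 in siPCARNEQ, against 12.90 ± 0.08 in siEGFP, a difference of 0.97 (SE 0.07, adjusted p = 0.000171). The 3 probe sets of CAT ran from 0.34 to 0.97 and their mean gave 0.75. GPX8, a peroxidase of the endoplasmic reticulum, fell by 1.59 (SE 0.11, adjusted p = 0.000111). The epithelial peroxidase GPX2 and the oxidase NOX5 rose by 0.30 and 0.33 and thioredoxin (TXN) fell by 0.24, with adjusted p of 0.0218, 0.0491 and 0.0441. GPX2, NOX5 and TXN each lost their call without siEGFP array 1, 2 or 3 alone, and NOX5 also without any 1 of the siPCARNEQ arrays, TXN without siPCARNEQ array 2 or 3, and GPX2 without siPCARNEQ array 2. All 3 also lost it with arrays 2 and 3 averaged, where 1 gene of this list rose and 1 fell. NOX5 and TXN did not pass without probe sets that have the suffix s or x, nor TXN with the mean of its probe sets. The 2 probe sets of GPX2 differed in sign (-0.10 and 0.30), and their mean gave 0.10 and did not pass, while the mean over the probe sets of NOX5 gave 0.53. Of 6 measured genes of the complex that anchors AQP4 at the membrane, 0 passed with limma and 0 had an unadjusted p below 0.05. Without siPCARNEQ array 1, 1 of these 6 rose and 1 fell. Without probe sets that have the suffix s or x, 1 gene of this list rose. DTNA, named after its values were seen, differed by 0.21 in its brightest probe set, and its 8 probe sets ran from 0.09 to 1.01.

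**Figure D5:**
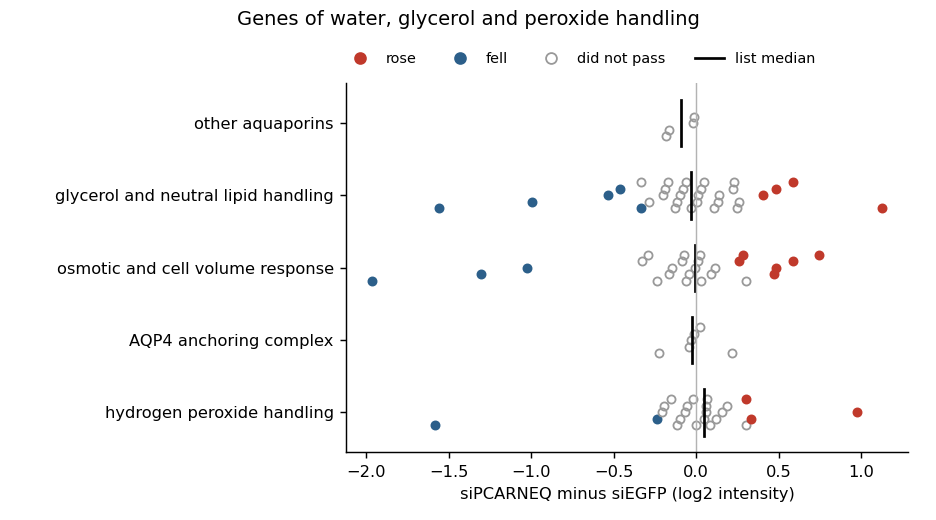
Difference siPCARNEQ minus siEGFP in log2 intensity (x axis) for each measured gene of 5 lists (rows), in red where it rose, blue where it fell and open grey where it did not pass with limma, with black bars at the list medians. The medians lie between -0.09 and 0.05, with single genes reaching -1.97 and 1.13.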

How the data were processed

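The authors deposited linear probe-set intensity made with RMA, per the submitters' processing notes, which give no version. RNA was extracted with Trizol and column-purified, and biotin-labelled cRNA was hybridised, per the labels. Sorted log2 values differed by at most 0.0049 between arrays, so differences in total RNA cannot be seen. No source used here gives the array's probe file or a genome build.

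Log2 was taken with no offset. Of 54675 probe sets, 62 controls were left out, and of the 54613 tested the platform annotation pairs 41091 with 1 gene, 1801 with several and 11721 with none. A gene was represented by its brightest single-gene probe set (19775 genes). The main test was limma 3.58.1 (lmFit, eBayes; R 4.3.3), 2-sided, on all 6 arrays with treatment as the only term, p adjusted by Benjamini-Hochberg and called below 0.05. In data simulated for the comparison of 3 siPCARNEQ with 3 siEGFP arrays over 54613 probe sets, it called 94 of 100 changes of 2 log2 units and 71 of 100 changes of 1. It also called 7 unchanged probe sets. The simulated noise was independent between arrays, with array 1 not set apart, and few probe sets were changed. These rates therefore need not hold for the real data. Figures used matplotlib 3.10.9 under Python 3.11.15. The number of arrays limits the precision.

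The members and lists were chosen with earlier results of these data known. Named by rule were all member probe sets, the 4 measured other aquaporins and up to 3 genes with the smallest p in each direction from each list. The 5 genes most like AQP3 probe set 39248_at were also named by rule. List genes that lack a probe set of their own were not analysed here. Both groups carry numbers 1 to 3. Deviations from the group means correlated at 0.47, 0.30 and 0.34 for same-numbered arrays. Arrays 2 and 3 correlated across numbers too (0.37 and 0.24). This sets array 1 apart in both groups but does not show that 2 pairs with 2 or 3 with 3. It rests on the data, as no shared batch is stated. The main test leaves any pairing out, and the replicate number was used only in an alternative. Alternatives were the replicate number as a block, leaving out each array or both arrays numbered 1, averaging arrays 2 and 3, an offset of 32, median centring, only probe sets above the median, the mean of all probe sets of a gene, and leaving out probe sets with the suffix s or x.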

Additional observations from a re-analysis of the deposited data

How the results depend on the processing

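The log2 difference of AQP3 probe set 39248_at was 2.43, was 2.24 with an offset of 32 and ranged from 2.22 to 2.62 over the fits that left out arrays. Under each alternative fitted to single probe sets, except the limit to those above the median, it moved by less than 1 SD between arrays. So did the 14 other aquaporin probe sets except AQP4 probe set 210067_at, which had 0.04 with the offset against 0.13 without. This criterion is weak. With 3 arrays in a group, leaving out 1 array cannot move a difference by 1 SD, and the replicate block cannot change it. AQP11 counts as not moved, although it went from -0.21 to -0.04 without siPCARNEQ array 1. All probe sets called higher numbered 5420 and those called lower 4702, against 1087 and 1177 with arrays 2 and 3 averaged. Leaving out arrays gave 3048 to 9078 higher and 2775 to 8026 lower, with 3048 and 2781 without siEGFP array 2, 3095 and 2775 without siEGFP array 3, and 9078 and 8026 without array 1 of both groups. With the replicate number as a block, 6769 were called higher and 5731 lower. Genes of the water, glycerol and peroxide lists called higher numbered 13 and those called lower 10, against 3 and 6 with arrays 2 and 3 averaged. Leaving out arrays gave 4 to 15 higher and 8 to 18 lower, with 4 higher without siEGFP array 2, 6 higher without siEGFP array 3 and 18 lower without array 1 of both groups. The replicate block gave 17 and 14 of these genes, and beyond the list counts printed above it ended no call of a named gene. Over all alternatives, the 17 named list genes that passed kept their direction, and they kept their call in 203 of 236 fits and lost it in 33. AQP2 and AQP6, which did not pass and had differences near 0, changed sign under several alternatives. Among the members, AQP4 probe sets 210068_s_at, 210906_x_at and 210066_s_at also changed sign in at least 1 alternative. The causes were not tested. Of the 15 aquaporin probe sets, 10 exceeded the background guide on no array, and siEGFP array 1 lay below it in 2 AQP3 probe sets, so the sizes of differences there are uncertain.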

Other observations

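AQP4-AS1, a non-coding RNA gene annotated beside AQP4 on the opposite strand and named after its values were seen, had probe sets that differed in sign. Probe set 1553440_at had log2 intensities of 3.94, 3.67 and 3.99 in siPCARNEQ, against 3.53, 3.53 and 3.31 in siEGFP. Probe set 1560751_at had 5.12, 4.94 and 5.11 in siPCARNEQ, against 5.33, 5.26 and 5.07 in siEGFP. The groups did not overlap in the first and overlapped in the second, and all of these values lay below the olfactory receptor guide of 7.28. The probe sets shared by AQP12A and AQP12B lay far apart in brightness, at 9.81, 9.67 and 9.69 in siPCARNEQ against 9.86, 9.75 and 9.60 in siEGFP for 1554344_s_at, and at 5.20, 5.31 and 5.55 in siPCARNEQ against 5.38, 5.63 and 5.53 in siEGFP for 1559575_a_at. The groups overlapped in both.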
